A study of Arabidopsis thaliana with 7 samples.

Results

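CDC6A (AT2G29680), CDC6B (AT1G07270), CDT1A (AT2G31270), CDT1B (AT3G54710) and CDC45 (AT3G25100) were examined for chromatin occupancy by the canonical E2F transcription factors of Arabidopsis thaliana and by RETINOBLASTOMA-RELATED (RBR). They were chosen by name, as the genes for the loading factors CDC6 and CDT1 and for the helicase subunit CDC45, and are 5 of the 27444 protein-coding genes on the 5 nuclear chromosomes. For each gene, every peak within 1000 bp of its transcriptional start site (TSS) was taken from all 7 lists of ChIP-seq peaks. The lists came from whole seedlings of the Col0 accession, grown for 12 days according to the labels, while the methods give another age. Plants expressed pE2FA-E2FA-GFP, pE2FB-E2FB-GFP, pE2FC-E2FC-GFP or pRBR-RBR-GFP, each a fusion to green fluorescent protein driven by the gene's own promoter, and chromatin was precipitated with an antibody against GFP. The 7 lists are those of replicate 1, which covers all 4 proteins, and of replicate 2, which leaves out E2FC.

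The series used here has no input library and none from untagged plants, and a whole seedling mixes dividing with non-dividing cells. Each protein was represented by 1 genotype. The replicate 1 lists give broad peaks, with a fold enrichment averaged over the peak, and the replicate 2 lists give narrow peaks, with the fold enrichment at a summit. Replicate, peak format and any sequencing batch therefore cannot be told apart, so fold enrichments were compared only within a list. Ranks of different lists are set side by side as a description, and no test between proteins or replicates was made. The lists held between 24883 and 28742 nuclear peaks, and their median fold enrichment ranged over 1.62 to 1.81 in replicate 1, against 2.65 to 3.06 in replicate 2. The rank of a peak is given as a percentile, the share of the peaks of its own list that have a lower fold enrichment.

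Licensing is the step in which origins of replication are prepared in G1. The origin recognition complex (ORC) recruits CDC6 and CDT1, which together load the MCM2-7 helicase onto DNA as an inactive ring. CDC45 and the GINS complex then join MCM2-7 to form the active helicase that unwinds DNA in S phase. E2F factors bind sites rich in C and G that follow a run of T upstream of many genes of this pathway, and RBR binds E2Fs and represses their target genes.

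The bases at the summits are shown first, because the positions and ranks given afterwards refer to them. All are from the RefSeq TAIR10.1 genome, whose nuclear chromosomes are those of the TAIR10 build used for the lists. They are written 5' to 3' on the strand of the gene, and positions count from the TSS as 0. Capitals mark matches, on either strand, to 1 of 2 forms of the E2F site. The first form is TTNNCGNN and the second is TTTNNCGC, with C or G at each N. Stretches upstream of a TSS are shown from 25 bp before the first summit or match, and matches inside a transcript are shown in 30 bases. CDC6A carried its matches inside its longer transcript, at chr2:12689321-12689350 and chr2:12689393-12689422, and both stretches lie before the start codon at 415 bp.
CDC6A, bases 150 to 179: cccaataaaaTTGCCGCGAAgccgatggtt
CDC6A, bases 222 to 251: ttccattgctaTTTCCCGCtacttccattt
CDC6B is shown upstream of its TSS, at chr1:2233018-2233149 on the reverse strand, with 1 match next to the TSS.
CDC6B, bases -132 to -1: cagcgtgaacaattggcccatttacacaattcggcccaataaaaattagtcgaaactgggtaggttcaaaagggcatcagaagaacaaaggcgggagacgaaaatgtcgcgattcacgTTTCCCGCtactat
CDT1A held matches on both sides of its TSS, at chr2:13328827-13328861 and, inside the transcript, at chr2:13328906-13328935.
CDT1A, bases -35 to -1: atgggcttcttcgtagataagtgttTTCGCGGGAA
CDT1A, bases 44 to 73: cgtaggattgCGCGCCAAAgacctaaataa
CDT1B had no match to either form within 1000 bp of its TSS, so the bases at its summits, chr3:20251675-20251811, have no capitals.
CDT1B, bases -137 to -1: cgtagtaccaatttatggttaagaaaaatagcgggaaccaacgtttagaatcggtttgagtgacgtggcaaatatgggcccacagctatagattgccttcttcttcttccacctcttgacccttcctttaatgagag
CDC45 is shown upstream, at chr3:9143791-9143915, and at its single match in the 5' UTR, at chr3:9143931-9143960.
CDC45, bases -125 to -1: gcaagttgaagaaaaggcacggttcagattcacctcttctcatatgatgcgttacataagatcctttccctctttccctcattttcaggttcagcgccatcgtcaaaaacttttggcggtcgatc
CDC45, bases 15 to 44: ttgaagatttcGCCGGCAAatacacaaacc

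All 5 genes had a peak of every protein in every list. In each of the 35 pairs of gene and list, the strongest peak of the window covered the TSS. How often it does so at other genes was not counted. A further 4 peaks lay in the windows of CDT1A and CDT1B. A peak within 1000 bp was common, however. Of all protein-coding genes, 75.7% had one with E2FA, 71.9% with E2FB, 57.0% with E2FC and 74.8% with RBR in replicate 1, and 67.1% with E2FA, 73.2% with E2FB and 77.4% with RBR in replicate 2. A peak in all 7 lists was found at 5 of the 5 genes and at 40.8% of protein-coding genes. Presence of a peak thus separates these genes little from others, and their rank within a list is the more informative value. A place among the strongest 10% of peaks in all 7 lists was held by CDC6A alone, 1 of the 5 genes, and by 0.751% of protein-coding genes.

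The rank was high for most of the 35 pairs. The median percentile of the 5 genes was 95.01 with E2FA, 99.3 with E2FB, 98.2 with E2FC and 89.9 with RBR in replicate 1, and 98.7 with E2FA, 99.4 with E2FB and 95.6 with RBR in replicate 2. Over all protein-coding genes with a peak, the median percentile of the strongest peak was between 56.1 and 65.0 in the 7 lists. CDC6A and CDC45 led in the 4 replicate 1 lists, whereas CDT1A led in the 3 replicate 2 lists, and CDT1B was the lowest or second lowest of the 5 in every list.

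**Figure D1:**
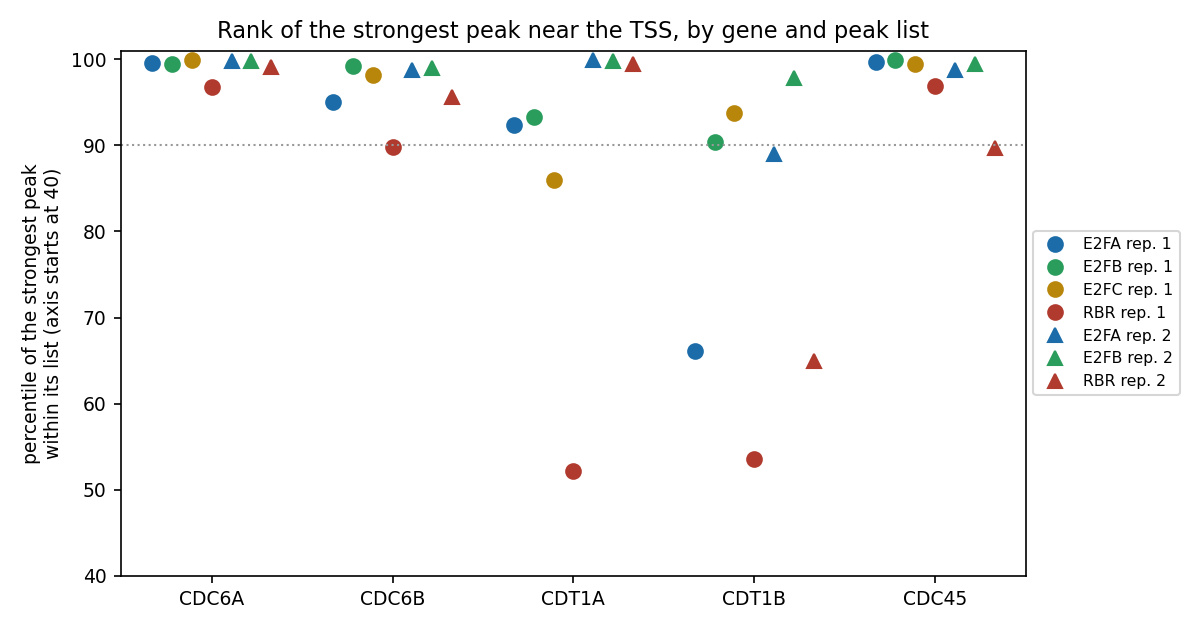
Percentile of the strongest peak near the TSS within its list (y axis, starting at 40) for the 5 genes (x axis), with circles for replicate 1, triangles for replicate 2 and colours for the proteins. The dotted line marks the strongest 10% of a list, and the RBR symbols of CDT1A in replicate 1 and of CDT1B in both replicates lie far below it, between 52.1 and 65.0.

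CDC6A encodes a CDC6 ATPase, which is needed with CDT1 to load MCM2-7. It lies at chr2:12689171-12693121 on the forward strand. In replicate 1, its peak had a fold enrichment of 3.37 with E2FA (percentile 99.6), 2.78 with E2FB (99.4), 3.36 with E2FC (99.9) and 2.44 with RBR (96.8). The E2FC peak ranked at 13 of 24883, the best rank of any of the 5 genes in replicate 1. In replicate 2, the fold enrichment at the summit was 19.3 with E2FA, 16.7 with E2FB and 7.44 with RBR, at ranks 49, 57 and 243 of their lists. Its lowest percentile in any list was thus the 96.8 of RBR in replicate 1. The 3 summits lay downstream of the TSS, at 195 bp (E2FA), 157 bp (E2FB) and 187 bp (RBR), in the 5' UTR of the longer transcript. A second annotated transcript starts at 410 bp, just before the start codon at 415 bp, and for it all 3 summits were upstream. The same bases belong to AT2G29679, a protein-coding gene model of 123 bp on the other strand, so both carry the same values and the peaks cannot be assigned to one of them. The summits bracketed the first pair of overlapping matches, TTGCCGCG and TTCGCGGC, centred at 163.5 and 165.5 bp, and lay at least 41.5 bp from TTTCCCGC, centred at 236.5 bp.

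CDC6B is the second CDC6 gene and carries no symbol in the RefSeq annotation. It lies at chr1:2229444-2233017 on the reverse strand, and its gene model is marked as incomplete at the 5' end, so its TSS is less certain than the others. Its replicate 1 peak had a fold enrichment of 2.67 with E2FA (percentile 95.01), 2.70 with E2FB (99.3), 2.54 with E2FC (98.2) and 2.21 with RBR (89.9). Replicate 2 gave 9.80 with E2FA (98.7), 10.5 with E2FB (99.0) and 6.01 with RBR (95.6). CDC6B thus ranked below CDC6A in all 7 lists, by less than 1 percentile with E2FB in both replicates and by 6.97 with RBR in replicate 1. The summits were upstream of the TSS, at -55 bp (E2FA), -66 bp (E2FB) and -107 bp (RBR). The nearest, that of E2FA, was 44.5 bp from TTTCCCGC, centred at -10.5 bp, while the RBR summit was 8.5 and 9.5 bp from a pair of site II elements. These elements, TGGGCN with C or T at the N, occur in many promoters of genes active in dividing plant cells.

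CDT1A encodes CDT1, the partner of CDC6 in loading MCM2-7. It lies at chr2:13328862-13331831 on the forward strand and was the gene whose RBR rank differed most between the replicates. In replicate 1, the fold enrichment was 2.54 with E2FA (percentile 92.4), 2.14 with E2FB (93.3), 2.02 with E2FC (86.0) and 1.74 with RBR (52.1). In replicate 2, it was 26.2 with E2FA (99.9), 18.6 with E2FB (99.9) and 7.84 with RBR (99.4). CDT1A therefore had the strongest peak of the 5 genes in each replicate 2 list, at ranks 19, 37 and 162, and the weakest or second weakest in each replicate 1 list. Its replicate 1 peaks were between 1713 and 2332 bp wide, the widest of the 5 genes for each protein, and reached beyond the TSS of APG9 (AT2G31260), the divergently transcribed neighbour at -1366 bp, which was named after its values were seen. Replicate 2 resolved the region. A narrow peak covered the CDT1A TSS, with summits at 8 bp (E2FA), 30 bp (E2FB) and 11 bp (RBR), and a separate peak of lower enrichment lay near APG9 with E2FA (3.80, summit at -1182 bp) and RBR (4.12, summit at -1185 bp). E2FB had no such peak in the window but a weak one inside the gene, with a fold enrichment of 2.01 at 830 bp. Each list was also split by width into 4 classes of equal number. Within its class, CDT1A had a replicate 1 percentile of 87.1 with E2FA, 89.7 with E2FB, 80.6 with E2FC and 20.5 with RBR. Each was below its percentile over the whole list. A class spans a range of widths, so peaks as wide as these were not compared by themselves, and an effect of width on the rank was not tested. The summits stood among 4 E2F matches, TTCGCGGG and TTCCCGCG centred at -6.5 and -4.5 bp, and TTGGCGCG and TTTGGCGC centred at 57.5 and 58.5 bp, which overlap.

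CDT1B, the second CDT1 gene, lies at chr3:20251812-20254323 on the forward strand. Its peak was the weakest of the 5 genes in 5 of the 7 lists. Replicate 1 gave a fold enrichment of 1.99 with E2FA (percentile 66.1), 2.05 with E2FB (90.4), 2.23 with E2FC (93.8) and 1.75 with RBR (53.5). In replicate 2 it was 4.45 with E2FA (89.0), 8.17 with E2FB (97.8) and 3.64 with RBR (65.0). Within each replicate, E2FB thus ranked above E2FA at this gene by 24.2 percentiles in replicate 1 and by 8.81 in replicate 2, and RBR ranked lowest both times. Within their own width classes, the replicate 2 peaks of CDT1B had a percentile of 67.9 with E2FA, 92.6 with E2FB and 87.0 with RBR, so that RBR then ranked above E2FA. In replicate 1, RBR was the lowest also within width classes, with 21.9. The 3 summits fell within 21 bp of one another, at -96 bp (E2FA), -91 bp (E2FB) and -112 bp (RBR). A second RBR peak, with a fold enrichment of 2.70 and a summit at -753 bp, lay toward PHT1;7 (AT3G54700), a phosphate transporter gene transcribed away from CDT1B from a TSS at -864 bp. Because the strongest CDT1B peak was also the strongest within 1000 bp of the PHT1;7 TSS in every list, both genes carry the same 7 values. Near the summits were overlapping site II elements, centred at -60.5 and -58.5 bp. A telo-box, AAACCCTA, centred at 7.5 bp, lay farther off, 98.5 bp from the nearest summit, that of E2FB.

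CDC45 encodes the subunit that turns the loaded MCM ring into an active helicase. It is a gene of 1 exon at chr3:9143916-9146236 on the forward strand, without another TSS within 2000 bp. In replicate 1, its fold enrichment was 3.46 with E2FA (percentile 99.7), 3.17 with E2FB (99.9), 2.85 with E2FC (99.5) and 2.45 with RBR (97.0). The E2FB peak ranked at 23 of 26356. Replicate 2 gave 9.80 with E2FA (98.7), 13.1 with E2FB (99.4) and 5.18 with RBR (89.7), so that CDC45 stood below CDC6A and CDT1A in all 3 lists. Summits were at -11 bp (E2FA), -35 bp (E2FB) and -100 bp (RBR), the widest spread of the group. The E2FA summit was 40.5 bp from the match TTGCCGGC, centred at 29.5 bp.

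**Figure D2:**
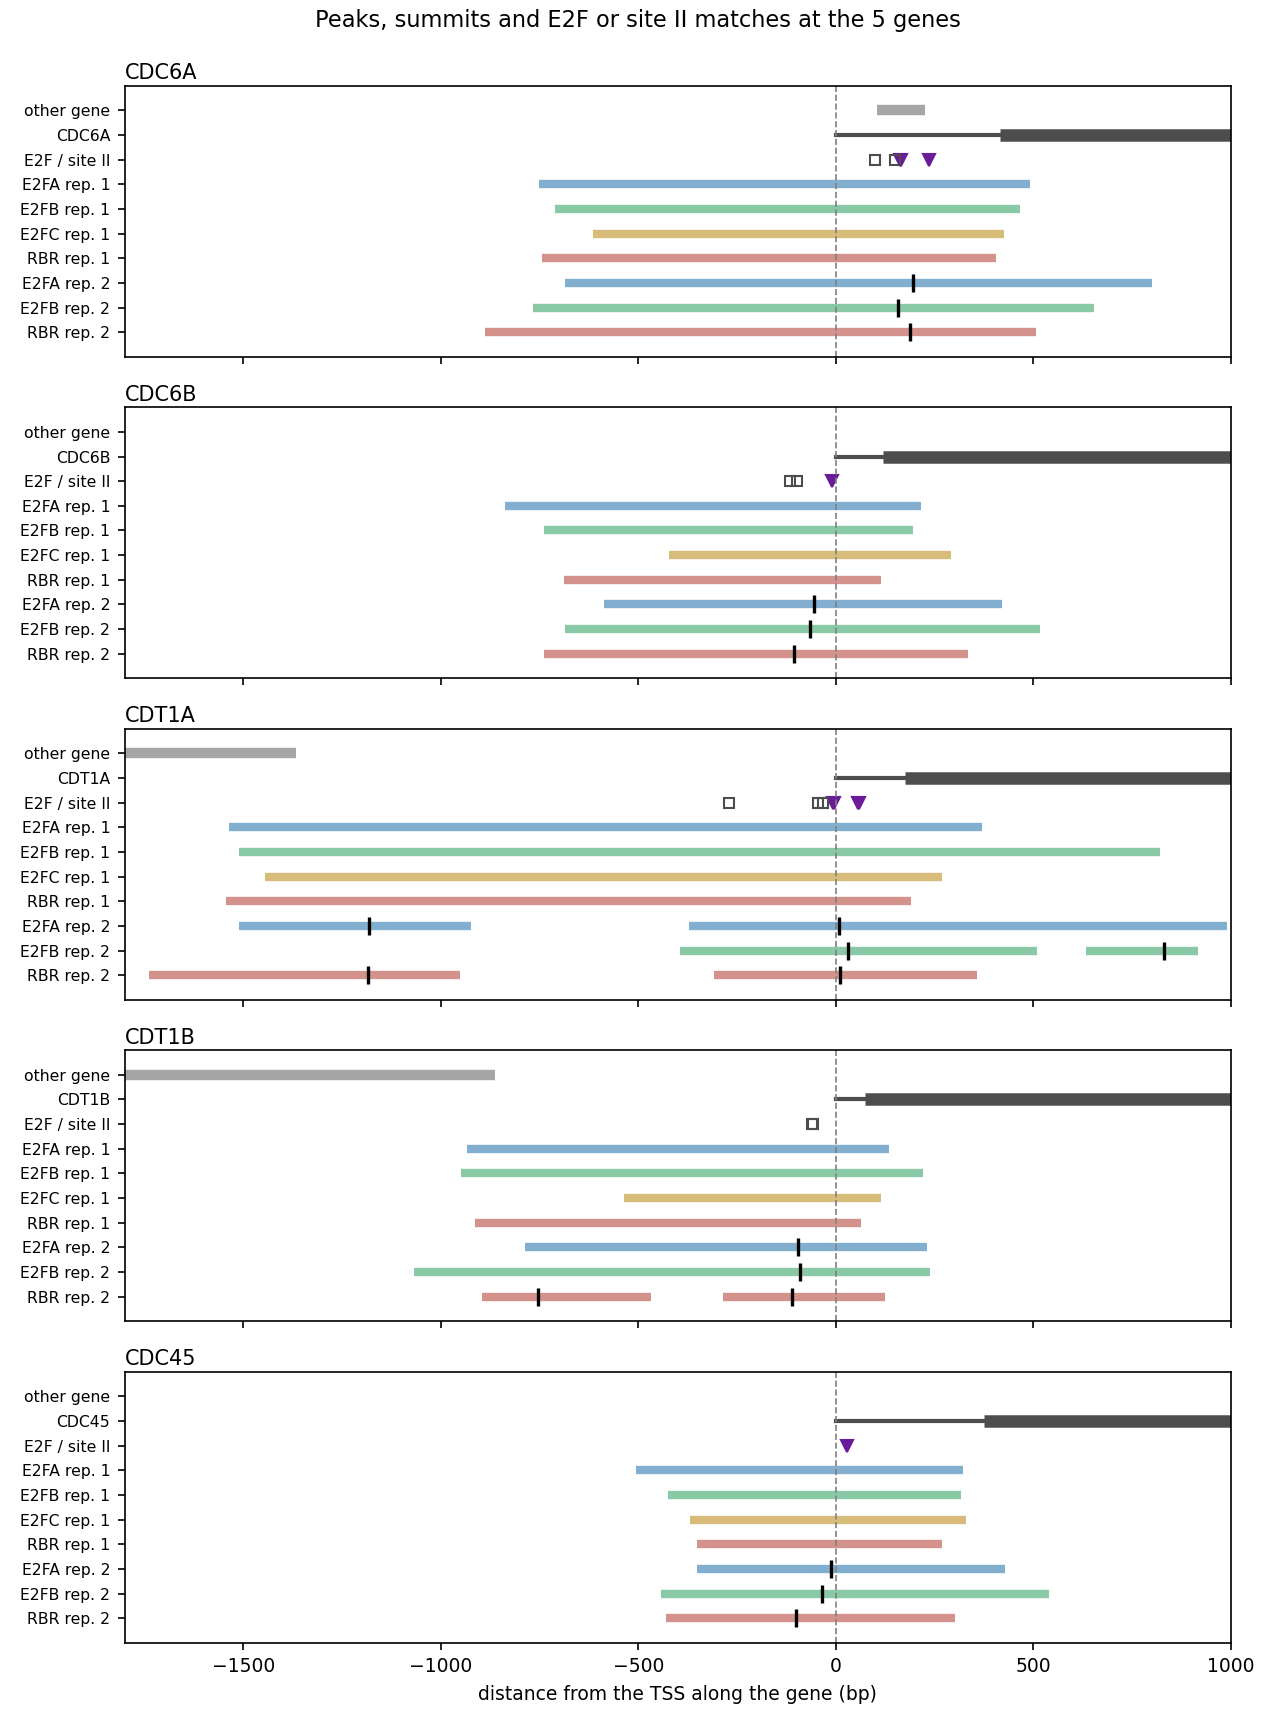
Peaks of the 7 lists within 1000 bp of the TSS (coloured bars) against the distance from the TSS in bp (x axis) for each gene, with replicate 2 summits as black ticks, E2F matches as filled triangles, site II elements as open squares, the gene as a dark bar (thick from the first start codon) and neighbouring genes in grey. At CDT1A the 4 replicate 1 bars reach beyond the neighbouring TSS at -1366 bp, and the 3 replicate 2 summits near the TSS are at 8, 30 and 11 bp.

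A fold enrichment over 3 with a q-value under 0.01 was used as a threshold, the values by which the study defined its target genes. It was applied here to each list by itself, so the counts are not the study's own target lists. In replicate 1, CDC6A and CDC45 passed with E2FA, CDC45 alone with E2FB, CDC6A alone with E2FC and none of the 5 genes with RBR, that is 2, 1, 1 and 0 of 5. The share of protein-coding genes with such a peak was 1.73% with E2FA, 0.288% with E2FB, 0.266% with E2FC and 0.0182% with RBR. In replicate 2, 5 of 5 passed for each protein, beside 32.8% of protein-coding genes with E2FA, 49.2% with E2FB and 52.6% with RBR. CDC6B, CDT1A and CDT1B were thus past the threshold only in replicate 2, where it admitted a large part of the genome. In replicate 1, the highest value of these 3 genes was 2.70, at CDC6B with E2FB. The weakest of the replicate 2 values was CDT1B with RBR, 3.64.

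In replicate 2, the deposited values allowed the number of fragments at each summit to be recovered. Every fold enrichment was a whole multiple of 1 step per library, within 0.01 of a whole number for 100% of peaks, which places 1 constant background behind the whole list. This background was 19.0 fragments with E2FA, 19.4 with E2FB and 26.4 with RBR, when 1 is added to both counts. Poisson p-values computed from these counts came within 1% of the deposited p-values, plus 0.01 on the -log10 scale, for 100% of the 25833, 26988 and 28735 peaks that could be compared.

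For E2FA, the summit held 523 fragments at CDT1A (95% exact Poisson interval 479 to 570), 385 at CDC6A (347 to 425), 195 at CDC6B and at CDC45 (169 to 224 each) and 88 at CDT1B (70.6 to 108). The intervals of CDT1A, of CDC6A, of the pair CDC6B and CDC45, and of CDT1B did not overlap. For E2FB, the order was CDT1A with 378 fragments (341 to 418), CDC6A with 341 (306 to 379), CDC45 with 266 (235 to 300), CDC6B with 214 (186 to 245) and CDT1B with 166 (142 to 193). Among neighbours in this order, the intervals of CDC6A and CDC45 did not overlap and those of the other 3 pairs did, which does not show that their counts were alike. RBR had 214 fragments at CDT1A (186 to 245), 203 at CDC6A (176 to 233), 164 at CDC6B (140 to 191), 141 at CDC45 (119 to 166) and 99 at CDT1B (80.5 to 121), and the intervals of all 4 pairs of neighbours overlapped. Every lower bound was above the background of its library, but the peaks had been called against that background, so this adds no support. The intervals cover counting error in 1 library only, and each count is the maximum of its peak.

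**Figure D3:**
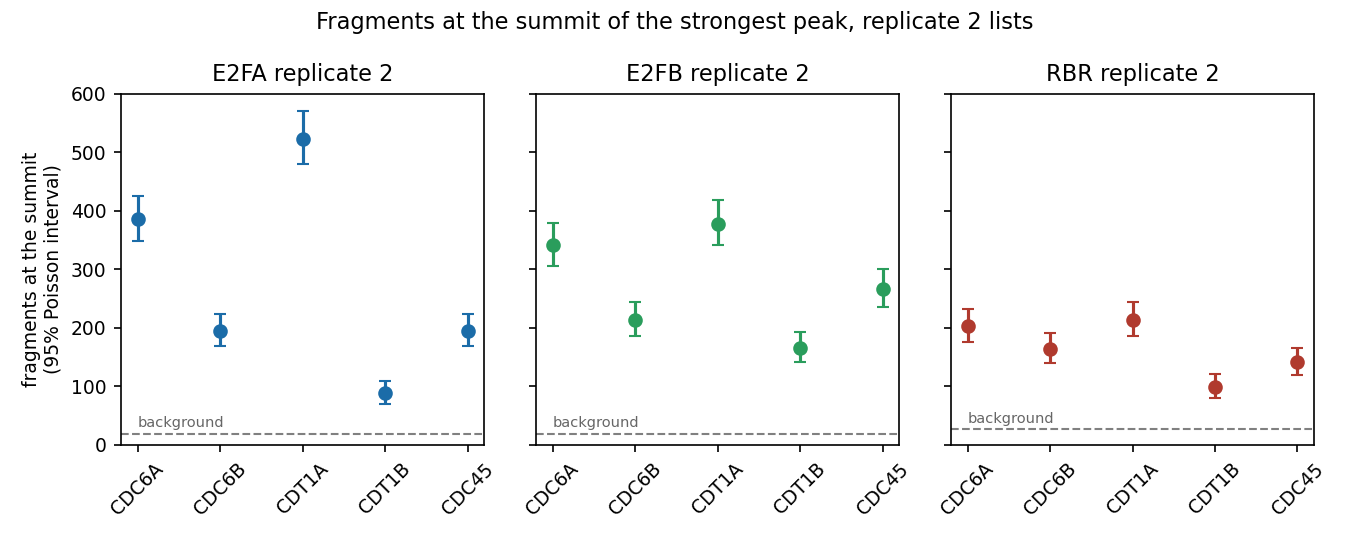
Fragments at the summit of the strongest peak (y axis, from 0) for the 5 genes in the 3 replicate 2 libraries, with exact 95% Poisson intervals as bars and the constant background of each library as a dashed line. CDT1A is highest and CDT1B lowest in each panel, with 523, 378 and 214 against 88, 166 and 99 fragments with E2FA, E2FB and RBR.

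The summits of different proteins lay close together. All 15 summits were inside a replicate 1 peak of each of the 4 proteins. How often this holds for the summits of other genes was not counted, and replicate 1 peaks were common. The 3 replicate 2 summits spanned 38 bp at CDC6A, 52 bp at CDC6B, 22 bp at CDT1A, 21 bp at CDT1B and 89 bp at CDC45. Among 17712 protein-coding genes with a peak in the 3 lists, the median span was 95 bp, and 25.3% of genes had a span of at most 50 bp. The 5 genes thus all lay below the median, and CDC6A, CDT1A and CDT1B were within the 25.3%. RBR was the outermost summit upstream at CDC6B, CDT1B and CDC45. At CDC6A and CDT1A it fell between those of E2FA and E2FB.

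By fold enrichment over the whole list, RBR ranked lowest at each gene. In both replicates, its percentile was below that of every E2F list of the same replicate at 5 of 5 genes. This held for 14.9% of the 11189 protein-coding genes with a peak in all 7 lists and for 19 of the 20 other licensing and firing genes with such peaks. Within width classes, the order held in both replicates at 3 of 5 genes and at 14.1% of the 11189. It turned in replicate 2 at CDT1B, with percentiles of 87.0 with RBR and 67.9 with E2FA, and at CDT1A, with 99.6 with RBR and 99.5 with E2FB. Over the whole list, the difference between RBR and the lower of E2FA and E2FB was smallest at CDT1A in replicate 2, with percentiles of 99.4 and 99.9, and largest at the same gene in replicate 1, with 52.1 and 92.4. Percentiles depend on the make-up of each list, and the amount of tagged protein and the efficiency of precipitation were not measured in these files.

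Matches to the E2F forms were read against all summits of the same lists. For each gene, matches were counted within 100 bp of any of its 3 replicate 2 summits. CDC6A held 2 matches to TTNNCGNN and 1 to TTTNNCGC, and CDC6B held 0 and 1. CDT1A held 3 and 1, CDC45 held 1 and 0, and CDT1B held 0 and 0. Either form occurred within 100 bp of 8.17% of all E2FA summits, 6.87% of E2FB summits and 4.41% of RBR summits, and in 4.32% of all promoters, taken as the 300 bp from 250 bp before the TSS. By itself, TTNNCGNN was found in 6.93, 5.76 and 3.66% of the windows and 3.55% of promoters, and TTTNNCGC in 3.56, 3.06 and 1.896% of the windows and 1.76% of promoters. The gene counts pool the windows of 3 summits, while each share of summits is for 1 window, so the 2 are unlike measures. The CDC45 match was more than 100 bp from its RBR summit. In this pooled count, 4 of the 5 genes held an E2F form near at least 1 summit, and CDT1B, the gene with the lowest ranks, held neither. A shorter core of 7 letters, TTNNCGN with C or G at each N, was searched after this result was seen. It was present at all 5 genes, as TTCCCGC on the opposite strand at -104 bp of CDT1B, between its RBR and E2FA summits, and as TTGGCGG at -10 bp of CDC45, 1 bp from its E2FA summit. The core is less specific, with a match in 11.9% of E2FA windows, 10.2% of E2FB windows, 6.97% of RBR windows and 7.28% of promoters. A match describes the letters in the window and does not show that a factor binds there.

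Other plant promoter elements were searched in the same windows. Site II elements, which the 4 genes other than CDC45 carried, were found in 22.0% of E2FA windows, 24.5% of E2FB windows, 24.4% of RBR windows and 21.7% of promoters. The core of the mitosis-specific activator element, AACGG, to which MYB3R factors bind, occurred at CDC6A, CDT1A and CDC45, against 20.6, 20.9 and 20.0% of the windows and 24.7% of promoters. The telo-box of CDT1B was found in 3.93, 4.003 and 3.99% of the windows and 6.22% of promoters. The 201 bp around the middle summit had a GC content of 39.3% at CDC6A, 40.3% at CDC6B, 45.3% at CDT1A, 37.3% at CDT1B and 38.8% at CDC45, above the medians of 35.3, 34.8 and 34.8% around all E2FA, E2FB and RBR summits.

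The other genes of licensing and origin firing gave a background for the pathway. The list held 21 genes, for the ORC subunits, the MCM proteins 2 to 10, the 4 GINS subunits and ETG1, a replisome factor. Of these, 20 had a peak in all 7 lists and 5 were among the strongest 10% in all 7. Their median percentile was 97.5 with E2FA, 98.9 with E2FB, 98.1 with E2FC and 83.9 with RBR in replicate 1, and 99.7 with E2FA, 99.2 with E2FB and 93.8 with RBR in replicate 2. The 5 genes were thus close to the rest of the pathway, higher with RBR in both replicates and lower with E2FA in both. The same threshold was passed by 8 of 21 with E2FA, 4 with E2FB, 2 with E2FC and 0 with RBR in replicate 1, and by 20, 20 and 19 of 21 with E2FA, E2FB and RBR in replicate 2. The highest median percentiles over the 7 lists were those of MCM5 (99.9), MCM6 (99.8) and MCM2 (99.7), subunits of the ring that CDC6 and CDT1 load, beside 99.6 for CDC6A, 99.4 for CDC45, 98.2 for CDC6B, 93.3 for CDT1A and 89.0 for CDT1B. The lowest were PSF3 (3.59), a GINS subunit with a peak in 4 of the 7 lists, ORC5 (52.7), and MCM9 (86.4), a relative of the MCM2-7 subunits. PSF3 had fold enrichments of 1.39 with E2FB and RBR in replicate 1, and of 2.74 with E2FB and 2.48 with RBR in replicate 2.

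**Figure D4:**
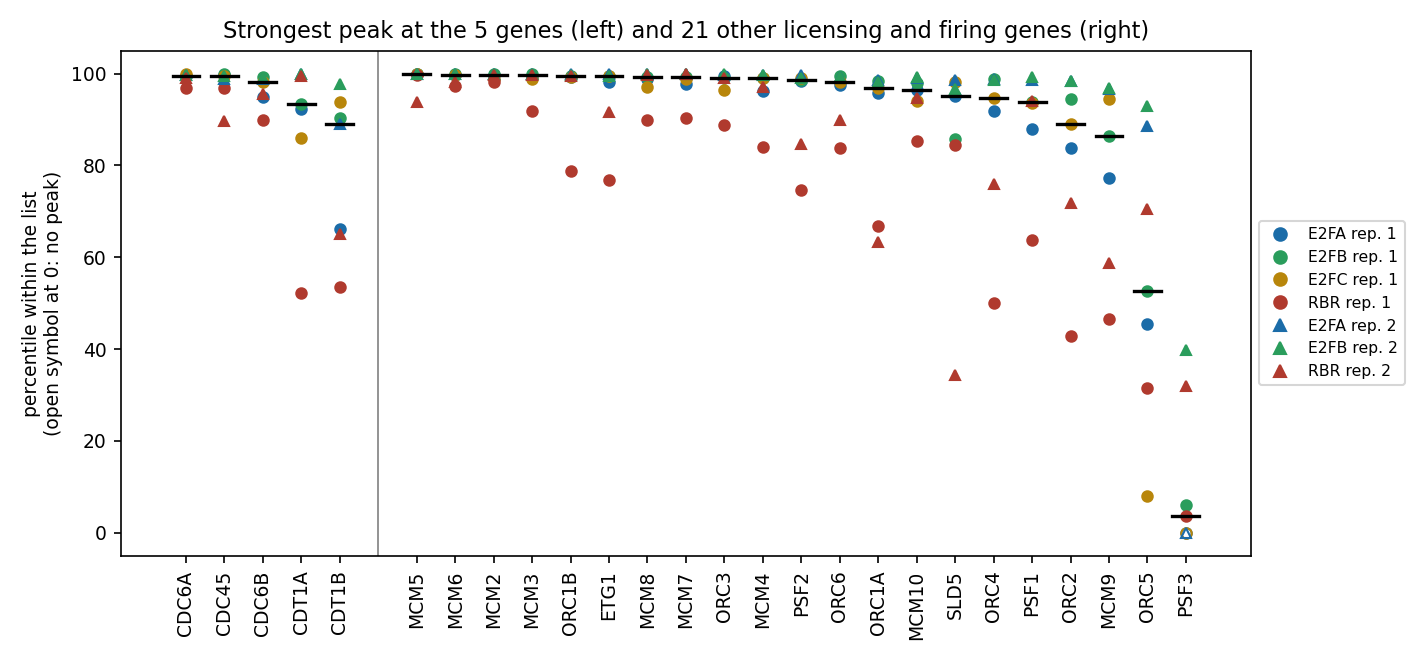
Percentile of the strongest peak within its list (y axis, from 0 to 100) for the 5 genes at the left and 21 other licensing and firing genes at the right, each ordered by the median over the 7 lists (black bar), with symbols as in the plot of ranks and open symbols at 0 where a list had no peak. Median percentiles run from 99.6 at CDC6A to 89.0 at CDT1B, and from 99.9 at MCM5 to 3.59 at PSF3.

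Genes with the most similar pattern were sought among the 11188 other protein-coding genes with a peak in all 7 lists, by the largest difference in percentile over the 7 lists. For CDC6A these were AT2G29679, which shares its peaks (difference 0), and AT3G52620 and AT3G52630, which had the same value (0.438). CDC6B was nearest to CENP-C, a centromere protein gene (1.33), AT3G54750 (1.66) and GATA16 (1.89). The nearest patterns to CDC45 were AT4G19590 (2.06), the tubulin gene TUB3 (2.18) and AT2G18876 (2.60). For CDT1B, PHT1;7 shared its peaks (0), and AT3G54630 (3.61) and TAF14 (6.51) followed. The pattern of CDT1A, which ranked lower in each replicate 1 list than in any replicate 2 list, was the least shared, with AT5G23460 and AT5G23470 (6.56 each) and AT3G11860 (6.67) as the nearest genes.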

How the data were processed

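The authors trimmed reads with Trimmomatic 0.38, mapped them to TAIR10 with Bowtie2 2.3.5 and called peaks per library, per the labels with MACS2 2.2.7.1. The names of replicate 2 peaks point to MACS3, and the sources used here do not give calling settings separately by replicate. In the deposited lists, each peak has a fold enrichment (a ratio to the background of its own library), p- and q-values as -log10 and a score derived from q. The deposited positions were used as given. Read depths were not used here.

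Peaks were matched to start sites of the RefSeq annotation with pandas 2.3.3, numpy 2.4.6 and scipy 1.17.1 under Python 3.11.15 (figures with matplotlib 3.10.9), and the procedures were tested on simulated data. Genes named were the 5 genes, neighbours with a TSS within 1000 bp, the 3 highest and 3 lowest other licensing and firing genes and those lacking a peak, and the 3 genes of nearest pattern for each. The genes and lists were chosen with earlier results of these data known. Alternatives varied the window, thresholds, ranking, position and motif. Exact Poisson intervals used a level of 95%.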

Additional observations from a re-analysis of the deposited data

How the results depend on the processing

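A peak at all 5 genes in all 7 lists was found with a window of 500 bp as with 1000 bp. It was also found with only midpoints or summits counted and with a q-value under 0.01. A window of 2000 bp, or leaving out any 1 library of E2FA, E2FB or RBR, also gave 5 genes. Those settings could not lower the count, so they are no check of it. The number past the threshold depended on the fold enrichment, more so in replicate 1 than in replicate 2. Over 2 in replicate 1, 4 genes passed with E2FA, 5 with E2FB, 5 with E2FC and 3 with RBR. Over 4 in replicate 1, 0 passed with E2FA, E2FB and E2FC, against 2, 1 and 1 over 3. Over 4 in replicate 2, 5 passed with E2FA, 5 with E2FB and 4 with RBR, where CDT1B stood at 3.64. A threshold of 2 admitted many peaks, as CDT1B, at 1.99 with E2FA in replicate 1, ranked at 9401 of 27771. Among the strongest 10% of a list in replicate 1 were 4 genes with E2FA, 5 with E2FB, 4 with E2FC and 2 with RBR. In replicate 2 these were 4 with E2FA, 5 with E2FB and 3 with RBR. The share of all protein-coding genes was not counted at these settings. Within 4 classes of width, the median percentile was 91.8 with E2FA, 99.4 with E2FB and 96.2 with E2FC in replicate 1, and 95.3 with E2FA, 97.9 with E2FB and 90.4 with RBR in replicate 2. By q-value it was 99.1 with E2FC. Among protein-coding genes it was 99.0 with E2FB and 98.4 with E2FC in replicate 1 and 99.2 with E2FB in replicate 2. Midpoints of replicate 2 spanned 247 bp at CDC6A, 119 bp at CDC6B, 286 bp at CDT1A, 334 bp at CDT1B and 112 bp at CDC45, and those of E2FA, E2FB and RBR in replicate 1 spanned 46, 39, 333, 60 and 50 bp. With E2FC included, the replicate 1 midpoints spanned 75, 246, 333, 215 and 72 bp. Ranked within width classes, RBR was the lowest in both replicates at 3 genes, against 5 under the other rankings, an alternative chosen after seeing the data. The cause of these differences was not tested. Of the recomputed percentiles and motif distances of single genes, 32 moved by more than the spread between replicates or, where there was none, beyond counting error, and 148 did not. Leaving out a replicate was not counted, because 1 of 2 values cannot move past their spread. The replicates also differ in peak format, so their spread can be wide and the 148 do not show stability. For CDT1A with RBR in replicate 1, a fall from 52.1 to 20.5 within width classes counted as not moved. Within 1 protein, the percentile without replicate 2 and without replicate 1 differed most for CDT1A and RBR (52.1 and 99.4) and for CDT1B and E2FA (66.1 and 89.0). The summits of the peak nearest to the TSS gave the same spans.

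No paired analysis was possible because no result comes from a test, and lists of the same replicate were only set side by side. With 1 or 2 libraries per protein and no control library, neither background precipitation nor the spread between plants was measured, and a peak in seedlings does not say in which cells the protein was bound.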
